A study of Mus musculus with 12 samples.

Results

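RNA sequencing of mouse LSK cells was used to set the loss of p300 directly against the loss of Tet2. LSK cells are sorted from bone marrow for Sca-1 and c-Kit and for the absence of lineage antigens, a fraction in which stem cells and multipotent progenitors of the blood are found. The comparison takes 6 of the 12 libraries of the series, 3 labelled p300KO and 3 labelled Tet2KO, chosen by their labels alone. The 3 WT libraries are given beside them as the common reference, and the remaining 3, labelled p300KO_Tet2KO, enter only the estimate of the spread and the values named as theirs. By the genotypes in the study's methods, WT mice were Ep300fl/fl, p300KO mice were Mx1-Cre;Ep300fl/fl, Tet2KO mice were Ep300fl/fl;Tet2-/- and p300KO_Tet2KO mice were Mx1-Cre;Ep300fl/fl;Tet2-/-, all on a C57BL/6 background. All groups thus carried floxed Ep300 alleles, and all were given poly(I:C), the inducer of Mx1-Cre, 2 weeks before the cells were taken at 8 to 10 weeks of age. By this design Ep300 was deleted 2 weeks before analysis, in cells that respond to interferon, whereas Tet2 was missing from the germline on. The design text of the deposit names Mx1-Cre for every group. If the methods hold, p300KO and Tet2KO also differ in Cre, and Cre and p300 loss cannot be told apart.

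p300, encoded by Ep300, is a lysine acetyltransferase that is brought to enhancers by transcription factors and acetylates histone H3 at lysine 27, a mark of active regulatory DNA. Tet2 oxidises 5-methylcytosine to 5-hydroxymethylcytosine, a step towards the removal of DNA methylation at CpG sites. LSK cells choose between lymphoid, myeloid and megakaryocyte-erythroid fates, and the first genes of each fate are already transcribed at a low level in them.

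The question was which genes separate cells without p300 from cells without Tet2. Of 17842 tested genes, 588 differed at an adjusted p under 0.05 (called, 3.3% of those tested). A total of 137 genes were higher in p300KO (0.768%) and 451 were lower (2.53%). Among them, 37 were higher (0.207%) and 281 were lower (1.57%) by at least 2-fold. Without regard to the test, all 3 p300KO libraries lay above all 3 Tet2KO libraries for 9.46% of the genes and below them for 11.3%. Of the 5 groups of lineage and stem cell genes, the lymphoid one had the most calls in 1 direction: 11 of 53 were lower in p300KO and none higher, with Il7r, Rag1, Rag2 and Dntt among them. The monocyte genes Ccr2 and Ly86 were 2 of 57 myeloid genes lower in p300KO, near the share of all tested genes. Of 85 stem cell genes 7 were lower, with the fetal or imprinted genes Hmga2, Igf2r, Dlk1 and Meg3 among them. Higher in p300KO were 3 of 54 megakaryocyte genes (Itga2b, Cd9 and Gata2) and 4 of 85 stem cell genes, Myb among them. Genes of granules and of the erythroid lineage gave no call by edgeR, and most regulators of stem cells did not either. The total depended on single libraries. It was 310, 275 and 347 without p300KO replicates 1, 2 and 3, and 301, 382 and 767 without Tet2KO replicates 1, 2 and 3. The median log2 fold change (p300KO minus Tet2KO) of all tested genes was 0.01.

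**Figure D1:**
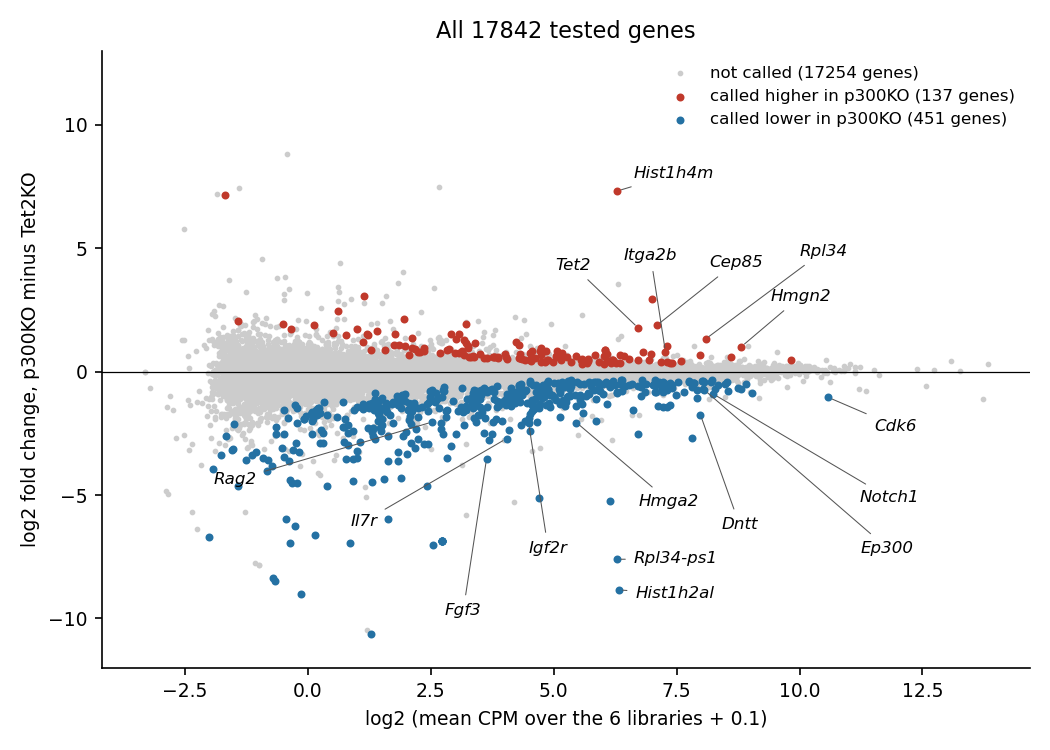
Log2 fold change (p300KO minus Tet2KO, y axis) against the log2 of the mean CPM over the 6 libraries plus 0.1 (x axis) for the 17842 tested genes, each point 1 gene. Called genes are more numerous below 0 (451, blue) than above it (137, red), and several of the points farthest from 0 are copies of other genes (Rpl34-ps1, Hist1h2al, Hist1h4m).

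Levels are in CPM, counts relative to the scaled library size, and single values are given in the order of replicates 1, 2 and 3. A signed value is the log2 fold change of p300KO minus Tet2KO unless another comparison is named. Total counts ran from 20149669 to 70530670 in p300KO and from 23354540 to 56210721 in Tet2KO. The study's methods describe the replicates as independent and biological, and the labels do not say from which animals each came. In a principal component analysis of these 6 libraries the first component held 36.9% of the variance and separated the groups, with p300KO at 29.8 to 49.4 and Tet2KO at -45.2 to -27.7. The libraries differed in sex. p300KO replicate 3 and Tet2KO replicate 3 held 5776 and 6665 CPM of Xist, the RNA of the inactive X chromosome, and no more than 0.0503 CPM from genes of the Y chromosome. p300KO replicates 1 and 2 and Tet2KO replicate 2 stood at 4.12 CPM of Xist or less, and Y-linked RNA at 238 to 312 CPM. Tet2KO replicate 1 had both, at 3279 and 177 CPM. The 3 WT libraries held 1.56 to 2.79 CPM of Xist and 257 to 276 CPM of Y-linked RNA. Comparisons of either group with WT are therefore unbalanced in sex. The group called Xist-low, p300KO replicates 1 and 2 and Tet2KO replicate 2, was also tested alone, where Tet2KO has 1 library whose spread is taken from the other groups. In it 160 genes were called, 21 higher and 139 lower.

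The targeted genes followed the labels of both groups. Ep300 (ENSMUSG00000055024.11, mm10 chromosome 15 from 81585351 to 81652077) had 176, 233 and 192 CPM in p300KO and 349.6, 346 and 313 CPM in Tet2KO. The groups did not overlap (log2 difference -0.75 ± 0.11 SE, adjusted p = 0.00236), and WT was close to Tet2KO at 307, 339.7 and 285 CPM. Tet2 (ENSMUSG00000040943.11, mm10 chromosome 3 from 133463679 to 133545139) was at 56.6, 38.6 and 48.1 CPM in Tet2KO and 139, 181 and 168 CPM in p300KO (log2 difference 1.77 ± 0.16 SE, adjusted p = 1.13e-04), again without overlap. Crebbp, which encodes CBP, the paralog of p300, was at 369 ± 35.6 and 384 ± 31.6 CPM (mean ± SD, n = 3 libraries each) and was not called (log2 difference -0.06 ± 0.10 SE, adjusted p = 0.843). Tet1 and Tet3, which encode the other enzymes that oxidise 5-methylcytosine, were not called either (log2 differences -0.33 and -0.13, adjusted p = 0.275 and 0.546). Kit, which encodes the c-Kit antigen of the gate, was at 770 to 837 CPM in p300KO and 724 to 982 CPM in Tet2KO (log2 difference -0.13, adjusted p = 0.664). Ly6a, which encodes Sca-1, was low in all libraries, at 14.7 to 24 CPM in p300KO and 19.7 to 32.8 CPM in Tet2KO (log2 difference -0.50, adjusted p = 0.322).

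For 5 of the called genes, the 250 bases upstream of the transcription start are shown. CpG, the dinucleotide that Tet2 acts on, is spread unevenly among them. Dntt, Notch1 and Selp were lower in p300KO than in Tet2KO and Itga2b and Myb were higher. The sequences come from RefSeq promoter windows on GRCm38.p6, read 5′ to 3′ in the direction of transcription, with each CpG in capitals. The 50 bases that follow each of them begin a Gencode vM21 transcript of the same gene.
Dntt: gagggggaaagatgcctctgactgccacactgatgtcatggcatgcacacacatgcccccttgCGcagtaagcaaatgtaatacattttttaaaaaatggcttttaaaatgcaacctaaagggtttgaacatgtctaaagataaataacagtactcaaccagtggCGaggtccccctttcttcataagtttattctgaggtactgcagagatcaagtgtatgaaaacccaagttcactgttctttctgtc
Notch1: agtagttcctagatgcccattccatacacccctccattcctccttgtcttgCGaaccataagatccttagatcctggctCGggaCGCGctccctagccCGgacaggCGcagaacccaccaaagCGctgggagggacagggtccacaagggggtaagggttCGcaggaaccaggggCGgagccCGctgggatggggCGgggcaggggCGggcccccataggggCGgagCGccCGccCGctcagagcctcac
Selp: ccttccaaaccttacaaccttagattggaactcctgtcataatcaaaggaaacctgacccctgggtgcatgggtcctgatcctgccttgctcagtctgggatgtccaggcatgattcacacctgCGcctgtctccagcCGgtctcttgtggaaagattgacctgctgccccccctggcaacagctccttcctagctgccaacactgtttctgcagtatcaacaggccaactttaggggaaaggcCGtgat
Itga2b: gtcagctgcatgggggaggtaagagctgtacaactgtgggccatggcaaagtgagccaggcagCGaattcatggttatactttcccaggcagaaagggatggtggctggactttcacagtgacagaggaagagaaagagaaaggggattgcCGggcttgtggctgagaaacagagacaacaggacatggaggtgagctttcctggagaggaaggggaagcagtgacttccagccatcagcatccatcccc
Myb: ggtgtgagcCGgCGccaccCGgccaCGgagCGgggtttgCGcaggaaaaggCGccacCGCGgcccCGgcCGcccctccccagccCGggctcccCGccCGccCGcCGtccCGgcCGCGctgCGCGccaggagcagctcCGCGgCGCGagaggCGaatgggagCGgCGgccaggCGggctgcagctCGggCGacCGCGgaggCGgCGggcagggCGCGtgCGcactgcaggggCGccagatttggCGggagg
The Dntt window (chr19:41029025-41029274, plus strand) held 2 CpGs and the Notch1 window (chr2:26503823-26504072, minus strand) held 16. The Selp window (chr1:164115014-164115263, plus strand) held 3. The Itga2b window (chr11:102469884-102470133, minus strand) held 2 and the Myb window (chr10:21160985-21161234, minus strand) held 40. Over all 32851 RefSeq promoter windows the median was 6 CpGs in the same 250 bases, with quartiles of 2 and 16. The 10974 tested genes with a window had a median of 15 and quartiles of 8 and 22. Among these Notch1 was near the median, Dntt, Selp and Itga2b were below the lower quartile and Myb was above the upper one. A comparison of CpG counts between called and other genes was void because fewer than 80% of the tested genes matched a window. No methylation was measured in these data.

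The lymphoid genes that were called were all lower in p300KO than in Tet2KO, and they included receptors, transcription factors and recombination enzymes. Of 56 listed genes 53 were tested, 11 were called lower (20.8%, against 2.53% of all tested genes) and 0 higher. The median of the 53 was -0.36, against 0.01 for all tested genes, and 47 of the 53 had a negative value. Against WT, 24 of the 53 were called lower in p300KO (background 2.85%) and 0 higher. In Tet2KO against WT, 0 of the 53 were called by edgeR in either direction (background 0.633%), 1 was higher and 18 were lower at an unadjusted p under 0.05, DESeq2 called 1 higher and 6 lower, and limma-voom called 2 lower. Both comparisons share the WT libraries. In bulk RNA of a sorted fraction, fewer lymphoid-primed cells and less RNA per cell cannot be told apart.

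Il7r (ENSMUSG00000003882.4, mm10 chromosome 15 from 9505788 to 9530176) encodes a chain of the receptor for interleukin-7, through which early lymphoid progenitors survive and expand. It was at 2.75, 4.36 and 5.98 CPM in p300KO and 33.6, 31.3 and 20.1 CPM in Tet2KO, with 35.7, 39.9 and 42.6 CPM in WT. All 3 p300KO libraries lay far below all 3 Tet2KO libraries (log2 difference -2.71 ± 0.25 SE, adjusted p = 1.13e-04, 95% interval -3.25 to -2.18). Notch1 encodes the receptor that directs progenitors to the T lineage. It was at 178, 220.2 and 235 CPM in p300KO and 475, 423 and 289.8 CPM in Tet2KO, without overlap (log2 difference -0.91 ± 0.19 SE, adjusted p = 0.0197), with Tet2KO replicate 3 closest to p300KO. Blnk encodes an adaptor of the pre-B cell receptor and was at 2.01, 7.21 and 6.09 CPM against 26.3, 19.2 and 11.4 CPM (log2 difference -1.88 ± 0.47 SE, adjusted p = 0.0467). The groups did not overlap. Flt3, which encodes the receptor tyrosine kinase of lymphoid-primed progenitors, was not called. Its levels were 326, 356 and 361 CPM in p300KO and 521, 525 and 290.2 CPM in Tet2KO (log2 difference -0.36 ± 0.18 SE, adjusted p = 0.366), so that Tet2KO replicate 3 fell below all 3 p300KO libraries. Flt3 stood at 676, 703 and 687 CPM in WT, and p300KO was lower than WT (-0.99, adjusted p = 0.0119). Ccr9, a chemokine receptor of thymus-seeding cells (-0.70, adjusted p = 0.370), and Cd27 (-0.10, adjusted p = 0.606) were not called.

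Among transcription factors, Sox4 (log2 difference -0.72 ± 0.15 SE, adjusted p = 0.0206), Ikzf1 (log2 difference -0.40 ± 0.09 SE, adjusted p = 0.0298), Satb1 (log2 difference -0.72 ± 0.17 SE, adjusted p = 0.0358) and Bcl11b (log2 difference -2.17 ± 0.52 SE, adjusted p = 0.0406) were called lower. Ikzf1 encodes Ikaros, which opens the lymphoid programme, Satb1 a chromatin organiser of lymphoid cells, and Bcl11b the factor that seals T cell commitment. Ikzf1 was at 312, 290.2 and 348 CPM in p300KO, 418, 449 and 388 CPM in Tet2KO and 490.4, 479.5 and 486 CPM in WT. The difference was small, but the groups did not overlap. Sox4 was at 314, 321 and 381 CPM in p300KO and 589, 602 and 481 CPM in Tet2KO, and Satb1 at 172, 202 and 219 and 381, 359 and 238 CPM, both without overlap. Bcl11b was scarce, at 0.426, 0.906 and 0.402 CPM in p300KO and 2.53, 4.84 and 0.842 CPM in Tet2KO, and Tet2KO replicate 3 lay within the p300KO range. Lef1, a partner of beta-catenin in early T and B cells (log2 difference -2.68 ± 0.68 SE, adjusted p = 0.0531), and Ebf1, which commits cells to the B lineage (log2 difference -1.86 ± 0.69 SE, adjusted p = 0.186), did not pass the test, although their groups did not overlap. Ebf1 was at 0.194, 5.14 and 2.97 CPM in p300KO, 12.9, 11.3 and 6.96 CPM in Tet2KO and 27.5, 18.4 and 17.4 CPM in WT.

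Of 12 tested genes of recombination and receptor components, Rag1, Rag2 and Dntt were called lower in p300KO. Prkdc (-0.11, adjusted p = 0.793) and Xrcc4 (-0.10, adjusted p = 0.760), which encode factors of the joining of DNA ends, overlapped and were not called. Rag1, which with Rag2 cuts the receptor gene segments, was at 3.17, 7.26 and 8.15 CPM in p300KO and 28, 35.9 and 10.1 CPM in Tet2KO (log2 difference -2.001 ± 0.46 SE, adjusted p = 0.0345). Rag2 was at 1.32, 2.08 and 3.37 CPM in p300KO and 9.83, 11.4 and 6.02 CPM in Tet2KO (log2 difference -2.04 ± 0.39 SE, adjusted p = 0.0140). For both genes the lowest Tet2KO library was replicate 3, and it still lay above the highest p300KO library. Dntt encodes terminal deoxynucleotidyl transferase, which adds nucleotides at the joints. It was at 81.1, 106 and 164 CPM in p300KO and 450.2, 522 and 194 CPM in Tet2KO, against 585, 642 and 911 CPM in WT (log2 difference -1.74 ± 0.40 SE, adjusted p = 0.0350). The groups came close only through Tet2KO replicate 3. Components of the pre-B cell receptor were not called. Vpreb1, Igll1 and Cd79a were at 1.07 ± 0.702, 2.24 ± 2.82 and 2.66 ± 2.29 CPM in p300KO and at 1.76 ± 0.332, 2.56 ± 0.614 and 4.02 ± 0.810 CPM in Tet2KO (adjusted p = 0.629, 0.971 and 0.705). In WT the same genes stood at 6.17 ± 2.68, 11.2 ± 5.16 and 14.6 ± 5.69 CPM.

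**Figure D2:**
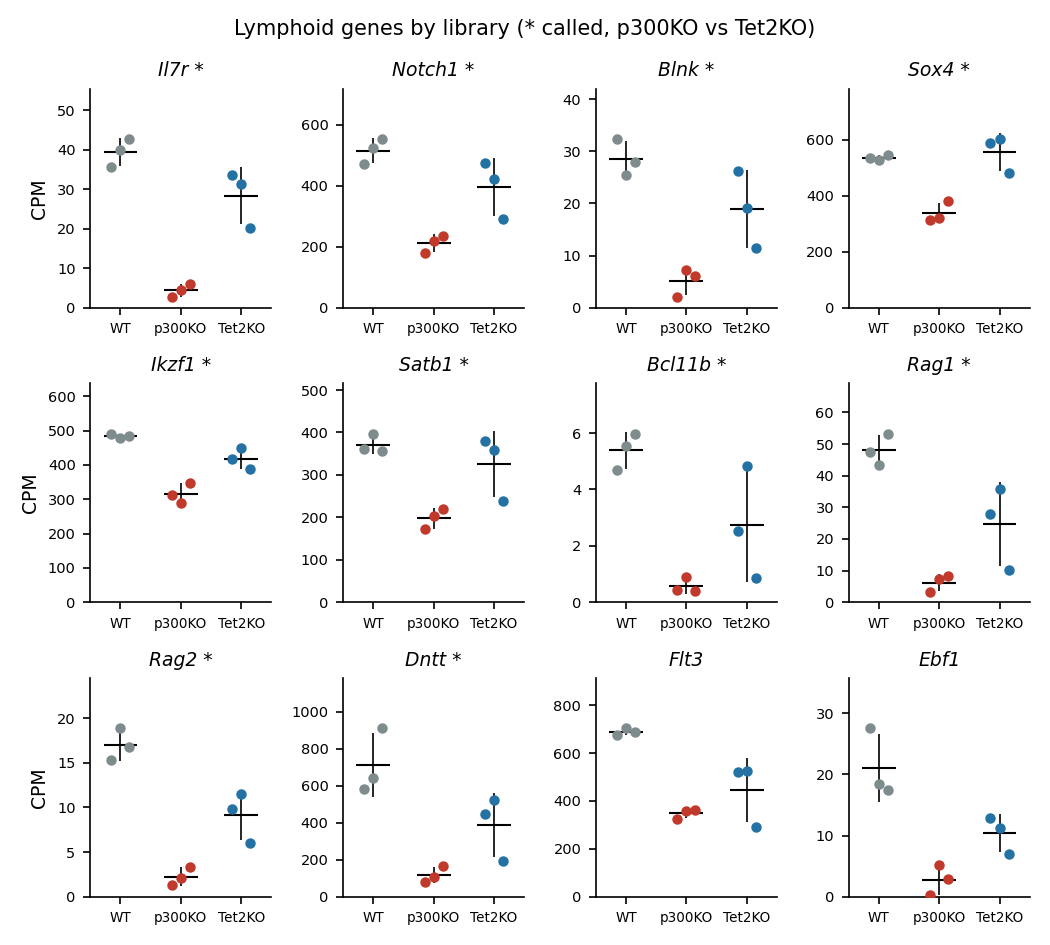
CPM (y axis, from 0) of 12 lymphoid genes in the 3 WT (grey), 3 p300KO (red) and 3 Tet2KO (blue) libraries, each point 1 library in the order of replicates, with the mean (horizontal line) and SD (vertical line) of the group. In 9 of the 10 called genes shown (asterisk) all p300KO libraries lie below all Tet2KO libraries, the exception being Bcl11b, and Tet2KO replicate 3 is the Tet2KO library closest to p300KO for Il7r, Rag1, Rag2 and Dntt.

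The count of lymphoid calls moved with which of the 6 libraries were kept. With 1 of them left out it ranged from 1 (without p300KO replicate 1 or 2) to 13 (without Tet2KO replicate 3), and was 2, 3 and 7 without Tet2KO replicate 1, Tet2KO replicate 2 and p300KO replicate 3. Il7r was called in all 6 of these fits, Rag2 in 4, Dntt, Notch1, Sox4 and Ikzf1 in 2, and Blnk, Satb1, Bcl11b and Rag1 in 1. In the Xist-low libraries alone 8 of the 53 were called lower and 0 higher, with a median of -0.30. The median stayed between -0.45 and -0.32 in the 6 fits without 1 library. The 9 tested markers of mature T and NK cells summed to 65.4, 67.2 and 63.1 CPM in p300KO and 75.9, 81.7 and 82.8 CPM in Tet2KO, without overlap, and their part in the lymphoid values was not tested.

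Few myeloid genes were called, with Ccr2 and Ly86 lower in p300KO than in Tet2KO and Itgb2 higher. Of 57 tested myeloid genes 1 was called higher in p300KO (Itgb2, background 0.768%) and 2 lower (Ccr2 and Ly86, background 2.53%), which is near the background, with a median of -0.26. Among the 26 receptors and surface proteins the median was -0.49, and 19 of the 26 were negative. Against WT, 3 of the 57 were called higher in p300KO (background 1.06%) and 1 in Tet2KO (background 0.482%), and 0 lower in either. In Tet2KO against WT, 29 were higher and 2 lower at an unadjusted p under 0.05, DESeq2 called 12 higher and limma-voom 1. The 15 granule genes had medians against WT of 0.84 in p300KO and 0.71 in Tet2KO. Both comparisons share the WT libraries. Ccr2 encodes the chemokine receptor by which monocytes leave the marrow. It was at 11.5, 12.1 and 22.6 CPM in p300KO, 14.4, 15.4 and 22 CPM in WT and 48, 28.3 and 87.2 CPM in Tet2KO (log2 difference -1.83 ± 0.41 SE, adjusted p = 0.0298). p300KO was close to WT and all 3 Tet2KO libraries were above both. Ly86, which encodes MD-1, a partner of a toll-like receptor homologue, was at 3.98, 4.17 and 5.94 CPM in p300KO and 11.1, 9.87 and 19.8 CPM in Tet2KO (log2 difference -1.53 ± 0.35 SE, adjusted p = 0.0307), without overlap.

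Further genes of the monocyte lineage had values in the same direction that missed the threshold. Csf1r, which encodes the receptor for macrophage colony-stimulating factor, was at 47.6, 39.3 and 63.2 CPM in p300KO and 107, 57.1 and 123 CPM in Tet2KO (log2 difference -0.94 ± 0.24 SE, adjusted p = 0.0578). Tet2KO replicate 2 overlapped p300KO. Against WT (33.4, 36.5 and 40.8 CPM) Csf1r was called higher in Tet2KO (1.38, adjusted p = 0.0259) and not in p300KO (0.44, adjusted p = 0.429). Irf8, the factor that directs progenitors to monocytes and dendritic cells (log2 difference -0.94 ± 0.25 SE, adjusted p = 0.0670), Ly6c2 (log2 difference -1.95 ± 0.53 SE, adjusted p = 0.0677) and Plac8 (log2 difference -0.82 ± 0.21 SE, adjusted p = 0.0533) were not called. Ly6c2 encodes the Ly6C antigen of monocytes and was at 15.7, 23.7 and 37.2 CPM in p300KO and 76.5, 37.7 and 182 CPM in Tet2KO. Its groups did not overlap, and replicate 3 was the highest library in each.

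Itgb2, which encodes the beta-2 integrin chain of leukocytes, went the other way, at 46.6, 40.1 and 43.8 CPM in p300KO against 26.7, 27.9 and 28.6 CPM in Tet2KO and 33.9, 35 and 35.2 CPM in WT (log2 difference 0.65 ± 0.11 SE, adjusted p = 0.00765). WT lay between the groups, and none overlapped. It passed in each of the 6 fits without 1 library, but not in the Xist-low libraries alone. Mpo, the peroxidase of azurophil granules, was at 1571, 1352 and 2475 CPM in p300KO and 2631, 2007 and 4153 CPM in Tet2KO (log2 difference -0.70 ± 0.27 SE, adjusted p = 0.206), and Elane, neutrophil elastase, at 69.4, 98.2 and 155 and 173, 71.6 and 294 CPM (log2 difference -0.74 ± 0.53 SE, adjusted p = 0.538). The groups overlapped for both genes, and replicate 3 was the highest in each group. The neutrophil alarmin S100a8 was at 0.658, 6.75 and 6.84 CPM in p300KO and 0.882, 0.313 and 0.930 CPM in Tet2KO (log2 difference 2.78 ± 0.74 SE, adjusted p = 0.0634), with p300KO replicate 1 inside the Tet2KO range. The myeloid transcription factor genes Spi1 (93.1 ± 8.73 CPM in p300KO and 93 ± 11.2 CPM in Tet2KO), Cebpa (89.97 ± 9.49 and 77.2 ± 21.2 CPM) and Gfi1 (31.8 ± 1.63 and 31.9 ± 2.93 CPM) had adjusted p of 0.994, 0.622 and 0.992. Of 16 such factors 0 were called by edgeR. At an unadjusted p under 0.05, 1 was higher and 2 were lower, and DESeq2 called 1 higher and 1 lower. Of 15 tested granule genes 0 were called by edgeR, 2 higher and 3 lower passed the unadjusted threshold, and DESeq2 called 1 each way. The myeloid counts moved with single libraries. Without 1 library the count called lower ranged from 0 to 9 (9 without Tet2KO replicate 2), and in the Xist-low libraries alone it was 0 with a median of -0.04.

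The megakaryocyte genes that were called were mostly higher in p300KO, and the share called lower (1.85%, 1 gene) was near that of all tested genes (2.53%). Of 54 tested genes 3 were called higher in p300KO (Itga2b, Cd9 and Gata2) and 1 lower (Selp), with a median of 0.16, against backgrounds of 0.768% and 2.53%. Against WT, 9 of the 54 were called higher in p300KO (background 1.06%) and 1 in Tet2KO (background 0.482%). In Tet2KO against WT, 11 of the 54 were higher and 0 lower at an unadjusted p under 0.05. DESeq2 called 4 of them higher and limma-voom 2. The medians of the 21 granule and cytoskeleton genes against WT were 0.56 in p300KO and 0.53 in Tet2KO, and those of the 19 surface receptors were 0.57 and 0.29. Itga2b encodes CD41, the alpha-IIb integrin chain of platelets and of early megakaryocyte-biased progenitors. It was at 207, 189 and 193 CPM in p300KO, 103, 108 and 127 CPM in Tet2KO and 90.1, 89.8 and 99.8 CPM in WT (log2 difference 0.80 ± 0.12 SE, adjusted p = 0.00325). All p300KO libraries were above all Tet2KO and WT libraries. Cd9, a tetraspanin of platelets and stem cells, was at 48.3, 43 and 46.1 CPM in p300KO and 28.5, 30.3 and 33.4 CPM in Tet2KO (log2 difference 0.57 ± 0.11 SE, adjusted p = 0.0118). Gata2, a zinc finger factor of stem cells, mast cells and early megakaryocytes, was at 361, 292 and 273 CPM in p300KO and 187, 194 and 193 CPM in Tet2KO (log2 difference 0.69 ± 0.13 SE, adjusted p = 0.0148). Neither overlapped, and Tet2KO was close to WT for Gata2 (164, 193 and 187 CPM). The 8 tested mast cell and basophil genes, of which Gata2 is the 1 called, summed to 434 to 471 CPM in p300KO and 283 to 367 CPM in Tet2KO. Gata2 itself made up most of this sum in every library, so the sum is no separate measure of mast cells. The part of such cells in these values was not tested.

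Selp encodes P-selectin, an adhesion molecule of platelet granules, and was higher in Tet2KO. It was at 88, 40.9 and 89.4 CPM in Tet2KO, 18.1, 14.7 and 36.5 CPM in p300KO and 18.3, 13.6 and 20.2 CPM in WT (log2 difference -1.67 ± 0.40 SE, adjusted p = 0.0413). The lowest Tet2KO library stood just above the highest p300KO library, and Selp was called higher in Tet2KO than in WT (2.07, adjusted p = 0.0402). The platelet chemokine gene Pf4 was at 24.8, 29.6 and 41.5 CPM in p300KO and 7.63, 6.66 and 19.4 CPM in Tet2KO and missed the threshold (log2 difference 1.52 ± 0.39 SE, adjusted p = 0.0556), as did Gp5, a subunit of the von Willebrand factor receptor (log2 difference 0.86 ± 0.22 SE, adjusted p = 0.0573). Both sets of groups were without overlap. Vwf (0.30, adjusted p = 0.714) and Itgb3 (0.41, adjusted p = 0.487) were not called. Without 1 library the count called higher was 1 (without p300KO replicate 1 or Tet2KO replicate 1), 3 or 5 (without Tet2KO replicate 3), and that called lower was 0 without p300KO replicate 1, p300KO replicate 2 or Tet2KO replicate 1 and at most 2, and Itga2b passed in each of these fits and in the Xist-low libraries.

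**Figure D3:**
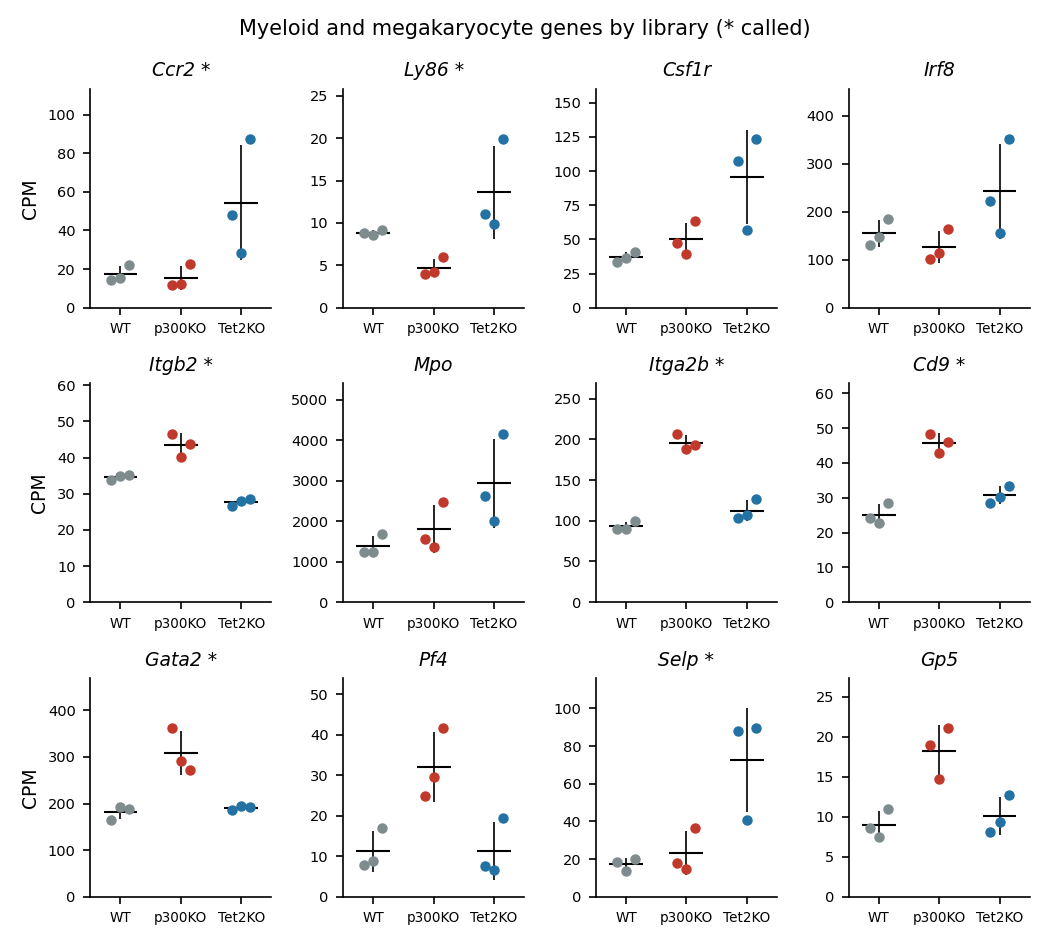
CPM (y axis, from 0) of 12 myeloid and megakaryocyte genes by library, with WT in grey, p300KO in red and Tet2KO in blue, the group mean (horizontal line) and SD (vertical line), and an asterisk for called genes. Ccr2 and Selp are high in Tet2KO alone, while Itga2b, Cd9 and Gata2 are high in p300KO alone and Mpo overlaps.

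Erythroid genes gave 0 calls among 28 tested, with a median of -0.05, and 1 gene was above and 1 below without overlap. At an unadjusted p under 0.05, 3 were higher and 5 lower. DESeq2 called 1 higher and 1 lower, and limma-voom called 1 higher. The median was 0.49 in the Xist-low libraries alone and 0.36 without Tet2KO replicate 3, where 1 gene was called higher, as it was without p300KO replicate 3. Car1, carbonic anhydrase of erythroid progenitors, ranged from 5.38 to 28.5 CPM in p300KO and from 18.4 to 166 CPM in Tet2KO (log2 difference -1.94 ± 0.78 SE, adjusted p = 0.227). The beta-globin gene Hbb-bs was at 7.54, 23.8 and 0.503 CPM in p300KO and 1.58, 0.424 and 1.06 CPM in Tet2KO (log2 difference 3.40 ± 1.02 SE, adjusted p = 0.102). Epor, the erythropoietin receptor gene (-0.05, adjusted p = 0.974), and Gata1 (0.19, adjusted p = 0.865) overlapped.

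**Figure D4:**
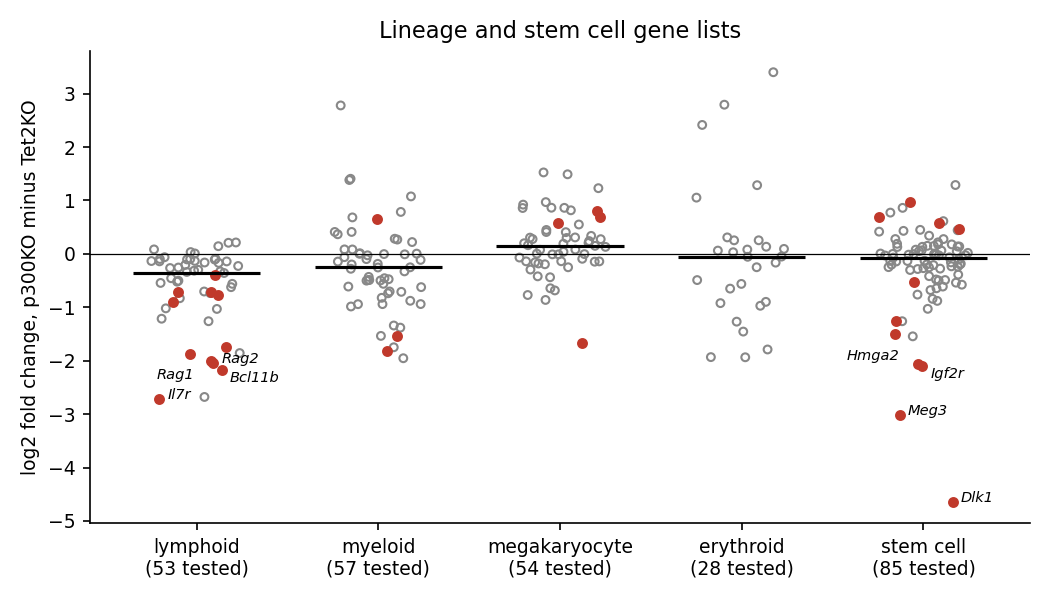
Log2 fold change (p300KO minus Tet2KO, y axis) of each tested member of 5 groups of genes (x axis), each point 1 gene, red if called, with the median of the group as a line. The lymphoid group has its median at -0.36 and 11 red points, all below 0, and the megakaryocyte group has its median at 0.16.

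Stem cell genes were called in both directions. Of 85 tested, 4 were called higher in p300KO (Myb, Gata2, Pbx3 and Emcn) and 7 lower (Hmga2, Cxcr4, Igf2r, Dlk1, Meg3, Grb10 and Cdkn1a), with a median of -0.07, against backgrounds of 0.768% and 2.53%. Most factors that maintain stem cells were not called. Mecom, which encodes Evi1, was at 42.6 ± 1.59 CPM in p300KO and 42.5 ± 8.90 CPM in Tet2KO (adjusted p = 0.998), and Hlf at 299 ± 40.5 and 273 ± 71.4 CPM (adjusted p = 0.772). Meis1 (0.18, adjusted p = 0.566), Hoxa9 (0.28, adjusted p = 0.460) and the surface protein genes Procr (0.14, adjusted p = 0.868) and Slamf1 (-0.28, adjusted p = 0.642) were not called. Fgd5, a marker of long-term stem cells, was at 17.6, 11.8 and 15.6 CPM in p300KO and 42.1, 34.8 and 14.1 CPM in Tet2KO (log2 difference -1.03 ± 0.31 SE, adjusted p = 0.0999), with Tet2KO replicate 3 inside the p300KO range.

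Myb encodes a transcription factor that keeps progenitors proliferating and binds the KIX domain of p300. It was at 1082, 976 and 1089 CPM in p300KO, 727, 716 and 824 CPM in Tet2KO and 644, 694 and 755 CPM in WT (log2 difference 0.47 ± 0.10 SE, adjusted p = 0.0245). All 3 p300KO libraries were above all Tet2KO and WT libraries. Myb passed in 2 of the 6 fits without 1 library and not in the Xist-low libraries alone. Pbx3, which encodes a partner of Hox proteins, was at 18.2, 16.2 and 17.9 CPM against 12.4, 11.2 and 11.2 CPM (log2 difference 0.59 ± 0.13 SE, adjusted p = 0.0285), without overlap, but in 0 of the 6 fits was it called. Of the 8 Hoxb genes 5 were tested and 0 called by edgeR, all 5 with negative values and a median of -0.61. At an unadjusted p under 0.05, 3 of the 5 passed, and DESeq2 called 2 and limma-voom 1. Hoxb2 and Hoxb3 had log2 differences of -1.11 and -0.61 (adjusted p = 0.0954 and 0.0923). Hoxb3 was at 7.51, 5.88 and 8.15 CPM in p300KO, 12.4, 9.24 and 10.9 CPM in Tet2KO and 8.19, 7.08 and 6.14 CPM in WT. Hoxb4, Hoxb5 and Hoxb6 had values of -0.28, -0.76 and -0.39.

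The fetal and imprinted genes Hmga2, Igf2r, Grb10, Dlk1 and Meg3 were lower in p300KO. Hmga2, a chromatin protein of fetal stem cells, was at 21.9, 16 and 13.2 CPM in p300KO and 84.1, 94.8 and 34 CPM in Tet2KO, with 67.9, 67 and 53.5 CPM in WT (log2 difference -2.06 ± 0.33 SE, adjusted p = 0.00446). The groups did not overlap, and Tet2KO replicate 3 was the lowest of its group by far. Igf2r encodes the receptor that clears insulin-like growth factor 2, and its maternal allele is the active one. It was at 6.62, 8.45 and 10.5 CPM in p300KO, 38.3, 42.5 and 28 CPM in Tet2KO and 43.8, 52.9 and 47.8 CPM in WT (log2 difference -2.10 ± 0.20 SE, adjusted p = 1.38e-04). Grb10, an imprinted adaptor of growth factor receptors, was at 18, 10.4 and 13.1 CPM in p300KO and 28.7, 33.2 and 36.7 CPM in Tet2KO (log2 difference -1.25 ± 0.18 SE, adjusted p = 0.00256). Neither overlapped.

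Dlk1 and Meg3, the paternally and maternally expressed genes of 1 imprinted cluster on chromosome 12, differed by the most among the stem cell genes. Dlk1 was at 0.155, 0.0976 and 0 CPM in p300KO and 2.20, 3.55 and 1.24 CPM in Tet2KO (log2 difference -4.64 ± 0.60 SE, adjusted p = 0.00106). Meg3, a noncoding RNA, was at 1.78, 1.66 and 1.41 CPM in p300KO, 21, 10.1 and 8.42 CPM in Tet2KO and 2.96, 3.02 and 3.07 CPM in WT (log2 difference -3.02 ± 0.41 SE, adjusted p = 0.00160). Here WT lay nearer to p300KO, and Tet2KO was called higher than WT (2.13, adjusted p = 0.0306). Cdkn1a, which encodes the cell cycle inhibitor p21, was at 9.17, 17.1 and 14.2 CPM against 45.5, 30.7 and 38.5 CPM (log2 difference -1.49 ± 0.36 SE, adjusted p = 0.0429). Cdkn1c, an imprinted inhibitor of the cell cycle in stem cells, was not called (-0.58, adjusted p = 0.521). Cxcr4, the receptor that holds stem cells in the marrow, was at 109, 118 and 105 CPM against 158, 154 and 170.3 CPM (log2 difference -0.54 ± 0.13 SE, adjusted p = 0.0442), without overlap. Hmga2, Igf2r, Dlk1, Meg3 and Grb10 passed in each of the 6 fits without 1 library, Cxcr4 and Cdkn1a in none. Without 1 library 0 to 3 stem cell genes were called higher (0 without p300KO replicate 1, 3 without Tet2KO replicate 3) and 5 to 9 lower (9 without Tet2KO replicate 3). In the Xist-low libraries alone 4 stem cell genes were called lower and 0 higher.

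Genes outside these groups made up most of the calls. Among called genes with a mean of 5 CPM or more and no overlap, leaving out pseudogenes and other copies (-ps, -rs), gene models without a name and antigen receptor segments, Fgf3, a growth factor gene, had the lowest value, with 2.71, 1.35 and 1.91 CPM in p300KO and 22.1, 23.4 and 22.4 CPM in Tet2KO (log2 difference -3.54 ± 0.25 SE, adjusted p = 1.63e-05). Scin, which encodes the actin-severing protein scinderin, was at 1.16, 0.655 and 1.71 CPM against 6.52, 10.9 and 20.9 CPM (log2 difference -3.50 ± 0.47 SE, adjusted p = 0.00150). Nrp1, a coreceptor for semaphorins and VEGF, was at 2.55, 2.70 and 6.94 CPM against 21.1, 17.7 and 29.4 CPM (log2 difference -2.51 ± 0.37 SE, adjusted p = 0.00266). None of these overlapped, and for Fgf3 the Tet2KO libraries lay within 22.1 to 23.4 CPM. Further genes lower in p300KO were Gdf3 (-2.93), a ligand of the TGF-beta family, the receptor gene Il31ra (-2.92), Paqr5 (-2.54), BE692007 (-2.52) and the glutamate receptor gene Gria3 (-2.51). The potassium channel gene Kcng1 (-2.42), Scube3 (-2.37), the receptor phosphatase gene Ptprf (-2.34) and Sgsm1 (-2.18) completed this end. Gria3 reached 120 to 227 CPM in Tet2KO against 23.2 to 42.5 CPM in p300KO and 64.4 to 82.2 CPM in WT, so that the groups lay on opposite sides of WT. Cwc22, which encodes a splicing factor, was at 62.6, 52.1 and 64.8 CPM in p300KO and 364, 101 and 702 CPM in Tet2KO (log2 difference -2.70 ± 0.48 SE, adjusted p = 0.00874). Its WT libraries (64.7, 56.8 and 56.5 CPM) lay with p300KO, its Tet2KO libraries were far apart from each other, and the libraries labelled p300KO_Tet2KO were at 406, 649.5 and 454 CPM.

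At the other end, Krt80, a keratin gene, was at 13.7, 9.16 and 10.4 CPM in p300KO and 4.14, 3.59 and 3.76 CPM in Tet2KO (log2 difference 1.53 ± 0.19 SE, adjusted p = 7.80e-04). Cyp27a1, a sterol hydroxylase, was at 9.48, 14.1 and 13.6 CPM against 6.13, 2.93 and 3.99 CPM (log2 difference 1.51 ± 0.27 SE, adjusted p = 0.00808), and C1ra, a complement protease gene, at 28.8, 25.2 and 24.8 CPM against 11.2, 12.9 and 9.75 CPM (log2 difference 1.21 ± 0.14 SE, adjusted p = 4.46e-04). All p300KO libraries were above all Tet2KO libraries for these genes. H2afy2 (1.33), a macroH2A histone gene, Arfgef3 (1.27), the transporter gene Abcc3 (1.17), Dzip1 (1.15), the lipid phosphatase gene Inppl1 (1.09) and Wdr86 (1.02) followed. The rule also named Cep85, Snhg3 and Rpl34, which are described with their positions. The histone genes Hist2h2aa2 (2.94) and Hist1h2bn (1.04) have near-identical copies, and their counts are uncertain.

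Both groups were also set against WT. Of the 451 genes lower in p300KO than in Tet2KO, 240 were called lower in p300KO than in WT and 53 were called higher in Tet2KO than in WT. Of the 137 higher genes, 42 were called higher in p300KO than in WT and 9 were called lower in Tet2KO than in WT. In all, 698 genes (3.91%) were called in p300KO against WT and 113 (0.633%) in Tet2KO against WT, of which 27 (0.151%) were lower. All 3 comparisons share libraries, so these counts are not independent of each other.

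Genes of 4 signalling lists were counted beside the 2.53% of all tested genes called lower and the 0.768% called higher. Of 35 tested Notch pathway genes 3 were lower and 0 higher. They were Notch1 and its targets Nrarp, a feedback inhibitor at 2.63, 2.83 and 1.91 CPM in p300KO and 7.48, 7.82 and 5.09 CPM in Tet2KO (log2 difference -1.46 ± 0.22 SE, adjusted p = 0.00271), and Dtx4 (log2 difference -2.04 ± 0.37 SE, adjusted p = 0.00895). Of 34 Wnt pathway genes 2 were lower, the inhibitor Apcdd1 (log2 difference -2.60 ± 0.30 SE, adjusted p = 4.46e-04) and the corepressor Tle3 at 95.4, 92.2 and 100.2 CPM against 190.1, 165 and 161 CPM (log2 difference -0.84 ± 0.10 SE, adjusted p = 5.40e-04). Of 33 genes of cytokine signalling and the Bcl2 family 5 were lower and 0 higher. Il6st, the shared gp130 receptor chain of the interleukin-6 family, was at 79.98, 75 and 103 CPM in p300KO, 135, 144 and 165 CPM in WT and 227, 189 and 279 CPM in Tet2KO (log2 difference -1.43 ± 0.17 SE, adjusted p = 5.38e-04). The groups lay on both sides of WT without overlap. Bcl2, which protects cells from apoptosis, was at 108, 127 and 136 CPM against 216, 219.9 and 272 CPM (log2 difference -0.93 ± 0.12 SE, adjusted p = 7.45e-04). Ifngr1 (-0.50), Tnfsf10 (-0.44) and Il10ra (-0.63) were the others. Of 25 MAPK feedback genes only the ephrin receptor gene Epha2 was called (log2 difference -1.79 ± 0.35 SE, adjusted p = 0.0158).

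The next lists stand beside the same shares of all tested genes, 0.768% called higher and 2.53% called lower. Of 52 cell cycle genes 1 was called. Cdk6, the G1 kinase that also governs the exit of stem cells from quiescence, was at 969, 976 and 1065 CPM in p300KO and 1964, 2171 and 2081 CPM in Tet2KO (log2 difference -1.05 ± 0.12 SE, adjusted p = 5.00e-04). The groups did not overlap. The median of the 52 was 0.16, and 7 of them had negative values. Of 39 Myc targets and ribosome biogenesis genes 4 had negative values and the median was 0.12, and 1 was called, the RNA polymerase I subunit gene Polr1b (log2 difference 0.51 ± 0.11 SE, adjusted p = 0.0295). Against WT Polr1b was called lower in Tet2KO (log2 difference -0.59, adjusted p = 0.0345). The 39 genes had medians against WT of -0.13 in p300KO and -0.23 in Tet2KO, with 34 and 39 negative values. Their sums overlapped, at 8441, 7076 and 8134 CPM in p300KO and 6126, 7741 and 8191 CPM in Tet2KO. Homing and adhesion genes gave 3 higher and 5 lower of 27. Alcam (log2 difference -1.24 ± 0.14 SE, adjusted p = 4.83e-04), Itga4, the alpha-4 integrin chain (log2 difference -0.65 ± 0.12 SE, adjusted p = 0.00879), and Selplg, the ligand of P-selectin (log2 difference -0.47 ± 0.10 SE, adjusted p = 0.0192), were lower, as was Cxcr4. Itgb2, its partner chain gene Itgal (log2 difference 0.34 ± 0.07 SE, adjusted p = 0.0266) and the lipid receptor gene S1pr1 (log2 difference 0.97 ± 0.21 SE, adjusted p = 0.0239) were higher. Of 30 genes of lysine acetyltransferases and deacetylases, Hdac9 was lower (log2 difference -1.41 ± 0.19 SE, adjusted p = 0.00134) and Hdac1 and Hdac6 higher (log2 differences 0.80 and 0.33). Ep300 and Crebbp were not among the 30. Among 20 other tested genes of DNA methylation and demethylation 0 were called by edgeR, 2 higher and 1 lower passed an unadjusted p under 0.05, and DESeq2 and limma-voom each called 1 lower. Of 32 NF-kB and inflammatory targets 0 were called by edgeR, with 1 higher and 2 lower at an unadjusted p under 0.05 and 1 lower by DESeq2 and by limma-voom. Of 21 AP-1 and immediate-early genes 0 were called by any of the 3 tools, also at an unadjusted p. Of 21 genes of antigen presentation only H2-DMa was called (log2 difference -0.51 ± 0.12 SE, adjusted p = 0.0394).

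All 44 tested genes of the type I interferon response had lower values in p300KO, with a median of -0.31, and 0 were called by edgeR. At an unadjusted p under 0.05, 10 were lower, DESeq2 called 5 of the 44 lower and limma-voom 0. Mx1, whose promoter drives the Cre of the p300KO mice, was at 1.896, 3.15 and 2.46 CPM in p300KO, 4.39, 4.62 and 14.9 CPM in Tet2KO and 6.82, 9.07 and 4.57 CPM in WT (log2 difference -1.64 ± 0.43 SE, adjusted p = 0.0621). Usp18, a brake on the interferon receptor, was at 6.19, 4.25 and 4.63 CPM in p300KO, 6.89, 10.1 and 21.6 CPM in Tet2KO and 12.3, 15.8 and 8.09 CPM in WT (log2 difference -1.35 ± 0.36 SE, adjusted p = 0.0653). For both genes the groups did not overlap, the WT libraries lay within the Tet2KO range, and Tet2KO replicate 3 was the highest library.

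Markers of other cells that the gate could hold were also read, and their part in the differences was not tested. The T cell genes Cd3e, Cd3d, Cd3g, Cd8a and Trac were below 1 CPM in all 6 libraries, and the neutrophil gene Ly6g was at 0 in all 6. The 10 dendritic cell genes summed to 365 to 418 CPM in p300KO and 378 to 592 CPM in Tet2KO. Flt3, which progenitors also express, is 1 of the 10 and made up most of this sum in every library. The median of the 10 was -0.56, and 8 of them had negative values. By edgeR 0 of 10 were called, with 4 lower at an unadjusted p under 0.05 and 4 lower by DESeq2. The 7 tested neutrophil genes summed to 10.5, 20.02 and 25.9 CPM in p300KO and 14.2, 6.72 and 13.9 CPM in Tet2KO, with 0 called by edgeR, 3 higher at an unadjusted p under 0.05 and 1 higher by DESeq2. The 7 tested macrophage genes summed to 19.1 to 26.1 CPM in p300KO and 13.8 to 26.9 CPM in Tet2KO, and Marco was at 0 in 5 of the 6 libraries. The 10 genes of mature B and plasma cells summed to 259.8 to 336 CPM in p300KO and 242 to 353 CPM in Tet2KO. In both of these lists 0 genes were called by any of the 3 tools, also at an unadjusted p. The 6 tested endothelial and stromal genes summed to 184, 181 and 176 CPM in p300KO and 283, 264 and 232 CPM in Tet2KO. Of them Pecam1, which LSK cells also express, was lower (log2 difference -0.84 ± 0.09 SE, adjusted p = 3.73e-04) and Cxcl12 was higher, at 1.04, 8.07 and 2.11 CPM in p300KO and 0.623, 0.405 and 0.310 CPM in Tet2KO (log2 difference 3.05 ± 0.70 SE, adjusted p = 0.0332). Cxcl12 was high in p300KO replicate 2, and was not called without that library. Col3a1, of the same list, was at 0 in 4 of the 6 libraries. Cd28, which encodes a costimulatory receptor of T cells, was the only mature T or NK gene called, at 0.426, 0.781 and 1.21 CPM in p300KO and 4.33, 3.63 and 3.99 CPM in Tet2KO (log2 difference -2.33 ± 0.40 SE, adjusted p = 0.00718).

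Neither called-higher nor called-lower genes were spread evenly over the chromosomes. The genome was divided into windows of 10 Mb, of which 277 held a tested gene. Windows were ranked by called-higher genes after their counts were seen. The top 3 were on chromosome 3 from 130 to 140 Mb (8 of 69 tested genes higher) and on chromosome 4. Those on chromosome 4 were from 130 to 140 Mb (7 of 165) and 120 to 130 Mb (6 of 118). Together the 3 windows held 352 tested genes and 21 of the 135 called-higher genes with a position. Of all tested genes 0.768% were called higher. Called-lower genes were most numerous on chromosome 1 from 130 to 140 Mb (13 of 140) and 170 to 180 Mb (11 of 137). Chromosome 5 from 110 to 120 Mb held 12 of 150, against 2.53% of all tested genes. The chromosome 3 window of the called-higher genes holds Tet2 itself. In this window Cisd2 was at 70.3, 74.2 and 68.2 CPM in p300KO, 40.8, 45.3 and 45.8 CPM in Tet2KO and 74.3, 68.2 and 71.3 CPM in WT (log2 difference 0.69 ± 0.08 SE, adjusted p = 5.38e-04), and Emcn, which encodes the stem cell sialomucin endomucin, at 12.9, 11.6 and 13.3 CPM in p300KO, 8.48, 6.22 and 4.34 CPM in Tet2KO and 16.7, 17.6 and 13.4 CPM in WT (log2 difference 0.98 ± 0.21 SE, adjusted p = 0.0239). Both were lowest in Tet2KO, with p300KO at the level of WT for Cisd2 and just under it for Emcn.

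On chromosome 4, Cep85, which encodes a centrosomal protein, was at 188, 259.6 and 196 CPM in p300KO, 250.1, 309 and 203 CPM in WT and 52.1, 68 and 56 CPM in Tet2KO (log2 difference 1.87 ± 0.22 SE, adjusted p = 4.83e-04). The p300KO_Tet2KO libraries, at 89.1, 53.4 and 53.4 CPM, were close to Tet2KO. Hmgn2, a nucleosome-binding protein, was at 535, 611 and 660.2 CPM in p300KO, 233, 389 and 274 CPM in Tet2KO and 419, 269 and 306 CPM in p300KO_Tet2KO (log2 difference 1.01 ± 0.19 SE, adjusted p = 0.0127). Hdac1, the histone deacetylase of the same window, was at 139, 141 and 151 CPM in p300KO, 66, 104 and 77.8 CPM in Tet2KO and 99.7, 76.2 and 70.4 CPM in p300KO_Tet2KO (log2 difference 0.80 ± 0.16 SE, adjusted p = 0.0160), and the RNA Snhg3 had a mean of 14.7, 3.82 and 5.79 CPM (log2 difference 1.94 ± 0.37 SE, adjusted p = 0.0128). In each case both groups labelled as lacking Tet2 were low, and p300KO was close to WT. The libraries labelled p300KO_Tet2KO held Tet2 RNA at 128, 101 and 145 CPM, close to WT, which goes against their label. Their Tet2 genotype was not tested. The reason for the clusters was not tested.

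**Figure D5:**
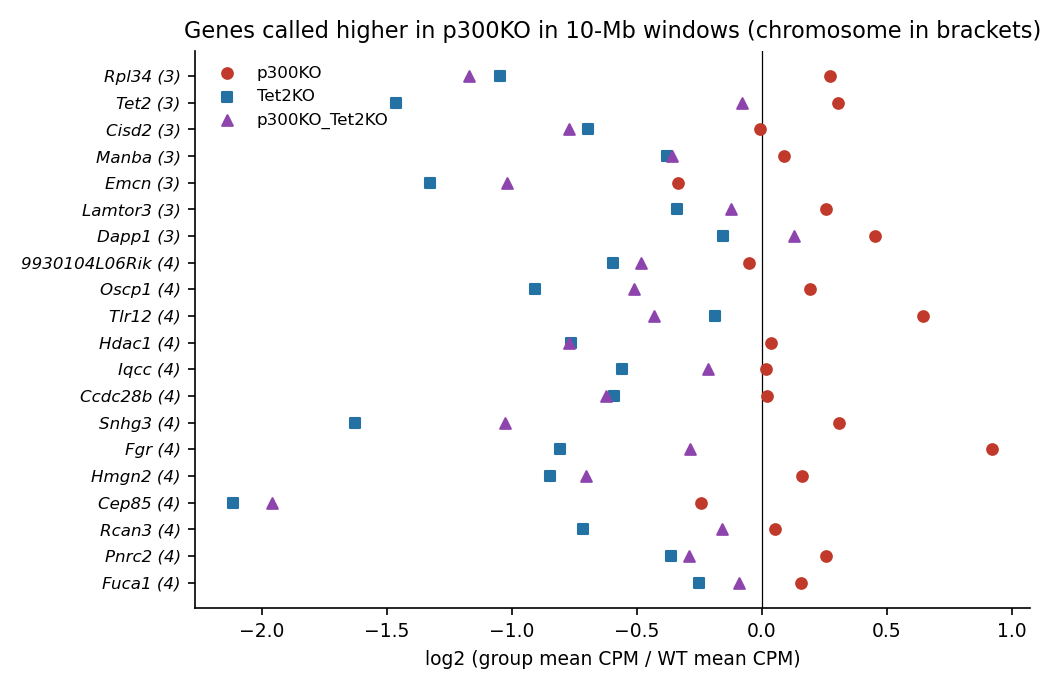
Log2 ratio of the group mean CPM to the WT mean CPM (x axis) for the genes called higher in p300KO than in Tet2KO in the 3 windows of 10 Mb with the most such genes (y axis, chromosome in brackets, all such genes but RP23-209N19.6), for p300KO (circles), Tet2KO (squares) and p300KO_Tet2KO (triangles). Tet2KO lies below 0 for each gene shown and p300KO lies to its right. p300KO_Tet2KO lies near Tet2KO for Rpl34, Cisd2, Hdac1, Hmgn2 and Cep85, among others. It lies nearer to WT for Tet2, Rcan3, Lamtor3 and Fuca1, among others, and above WT for Dapp1.

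Some of the largest differences concern near-identical copies. Rpl34, a ribosomal protein gene near Tet2, was at 388 ± 69.5 CPM in p300KO and 156 ± 6.54 CPM in Tet2KO (log2 difference 1.32 ± 0.16 SE, adjusted p = 5.91e-04). Its processed pseudogene Rpl34-ps1 on chromosome 6 showed the opposite, at 0.803 ± 0.0450 and 155 ± 6.05 CPM (log2 difference -7.60 ± 0.26 SE, adjusted p = 6.02e-09). The sum of both was 389 ± 69.5 CPM in p300KO, 311 ± 11.1 CPM in Tet2KO and 322 ± 69.9 CPM in WT, and the summed levels differed by less than those of Rpl34 alone. Tpm3 and its copy Tpm3-rs7 summed to 553 ± 32 CPM in p300KO and 517 ± 38.5 CPM in Tet2KO, although Tpm3-rs7 alone was at 3.71 and 137 CPM. Pcna and Pcna-ps2 summed to 324 ± 11.8 and 293 ± 46.1 CPM. The histone genes Hist2h2aa1 and Hist2h2aa2 stayed apart when summed, at 779.9 ± 108 CPM in p300KO and 511 ± 104 CPM in Tet2KO, with WT at 519 ± 236 CPM. The pseudogene copies were at like levels in p300KO_Tet2KO, with 164 CPM for Rpl34-ps1 and 180.1 CPM for Tpm3-rs7. Apart from Rpl34 and Hist2h2aa2, these genes were chosen after their values were seen.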

How the data were processed

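The authors sequenced rRNA-depleted RNA of sorted LSK cells as 100 bp read pairs, aligned the reads with STAR 2.6.0c to mm10 and deposited RSEM 1.3.0 expected counts per gene in 1 table of 12 libraries (4 groups of 3). The Gencode release is not given in the sources used here, and positions are those of matching Gencode vM21 identifiers. Between 83.5% and 87.5% of a library's values were whole. Expected counts were rounded and, after filterByExpr (17842 of 46517 genes kept) and TMM scaling, fitted over all 12 libraries with edgeR 4.0.16 (R 4.3.3) by quasi-likelihood, with 1 coefficient per group and Benjamini-Hochberg adjustment over all tested genes. Every adjusted p in the text is from this fit unless another tool (limma 3.58.1, DESeq2 1.42.0) is named, and log2 differences are the fitted fold changes. The test was checked on simulated counts. The 3 libraries labelled p300KO_Tet2KO, whose Tet2 RNA was at the WT level, enter the spread alone, and fits without them are among the alternatives. Spike-in rows numbered 0, so no spike-in scaling was used.

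The members and the 34 gene lists were chosen with earlier results of these data known. Named genes were the targeted enzymes and their paralogs, Myb, Dntt, Notch1 and the Hoxb genes, the 15 highest and 15 lowest called genes of at least 5 CPM whose groups did not overlap (leaving out pseudogenes, -ps and -rs copies, unnamed gene models and antigen receptor segments), and the first 5 and up to 5 most significant members of each lineage list (3 for other lists). Some genes that this rule covers are not reported here. Kit, Tnfsf10, Il10ra, Selplg, Itgal, S1pr1, Cisd2, Hmgn2, Rpl34-ps1 and the other copies were named after their values were seen. Promoter windows of 250 bases before the start were taken from RefSeq (GRCm38.p6).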

Additional observations from a re-analysis of the deposited data

How the results depend on the processing

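Of the 588 genes called in p300KO against Tet2KO, 585 were shared by a fit with DESeq2 size factors and 561 by limma-voom, which called 588 and 696. DESeq2's Wald test called 1103 (285 higher, 818 lower) and held 587 of the 588. A fit on the 6 libraries of the comparison alone called 343 (51 higher, 292 lower, 302 shared), and the Xist-low libraries alone called 160 (21 higher, 139 lower, 132 shared), both with fewer samples. Without a filter on low counts 678 were called, with a filter of 1 CPM 596, with a covariate for missing Y-linked RNA 709, and without chromosomes X, Y, 3 and M and pseudogenes 503. Leaving out 1 library gave 275 (without p300KO replicate 2) to 767 (without Tet2KO replicate 3) calls, 52 to 164 of them higher and 220 to 603 lower. Against WT, p300KO gave 698 calls, 1219 by DESeq2, 346 in the Xist-low libraries, and 247 (without WT replicate 1) to 653 without 1 library. Tet2KO gave 113, with 488 by DESeq2, 170 by limma-voom, 227 without the filter, 58 in the 6 libraries of that comparison, 29 in the Xist-low libraries, 72 without chromosomes X, Y, 3 and M and pseudogenes, and 36 (without WT replicate 1) to 209 (without Tet2KO replicate 2) without 1 library. The cause of these shifts beyond the number of samples and genes was not tested.

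With the replicate number as a block 525 genes were called (474 of the 588), 656 in p300KO and 158 in Tet2KO against WT. Deviations of same-numbered libraries correlated at -0.152, -0.0349 and 0.123, and those of other pairs at -0.14 to 0.192. With 3 libraries per group these values cannot show whether the numbers pair the samples. Under the replicate block 8 lymphoid and 11 myeloid genes were called lower. Counts of list members under alternatives were added after the data were seen. Lymphoid genes called lower numbered 6 in the 6 libraries alone, and myeloid genes called lower numbered 9 by DESeq2, without the filter and with the Y-linked covariate. The median of all genes was 0.01213 with TMM and 0.01421 with DESeq2 size factors.

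Of 86 called genes among the 135 in the text, 42 passed in each of the 6 fits without 1 library. Over all alternatives of these 135 genes, 1790 of 2144 values kept direction and side of the threshold, 259 fell short of it, 61 newly passed it and 34 changed sign. The sign changed for genes that had not been called. In the Xist-low libraries Elane was at 0.24, Gfi1 at 0.11, Epor at 0.606 and Igll1 at 0.74. Epor was at 0.44 by limma-voom and 0.11 with the block, and Mecom at 0.013 with the block, 9e-04 with DESeq2 size factors and 0.0006581 by DESeq2. Spi1 was at -0.0005499 without the filter and -0.002788 with that of 1 CPM, and Gfi1 at 0.001504 without chromosomes X, Y, 3 and M and pseudogenes. Without 1 library the values ran from -0.13 to 0.008934 for Crebbp, -0.092 to 0.074 for Spi1, -0.069 to 0.075 for Gfi1, -0.076 to 0.60 for Vwf, -0.11 to 0.85 for Gata1, -0.41 to 0.7011 for Epor, -0.16 to 0.12 for Mecom, -0.062 to 0.30 for Hlf, -0.12 to 0.32 for Procr and -2.08 to 0.37 for Igll1. Genes of a few CPM, such as Igll1, are limited by depth.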
